A study of Homo sapiens with 6 samples.

Results

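The 10 genes described here encode the transcription factor NRF2 (NFE2L2), a set of its well-known targets, and enzymes that make and break down glutathione. They were picked by symbol from the 38557 genes listed in the count tables, and all 10 were found there. GGT1 (gamma-glutamyltransferase 1) was among the reasons for the choice, because its difference between the media had already been seen in these data. Its values are therefore a description, and no test of it is used as support. The RNA came from cardiomyocytes made from the iPSC (induced pluripotent stem cell) line WTC11, an established human line, so all libraries share 1 genetic background. The cells were kept either in RPMI plus B27 (RPMI is a basal medium and B27 a serum-free supplement) or in DMEM plus fatty acids, with 3 biological replicates in each. What the media contained beyond their names, and how long cells stayed in them, is not given in the labels, and no genetic change is named.

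Glutathione is the most abundant small thiol of most cells. It is made from cysteine, glutamate and glycine, and the supply of cysteine, brought in as cystine, often limits its synthesis. NRF2 is held low by KEAP1, which presents it for degradation. When reactive compounds modify KEAP1, NRF2 accumulates without any need for more of its own mRNA, pairs with small MAF proteins and binds antioxidant response elements. In heart muscle, which respires heavily, this system is known for handling peroxides and electrophiles. Outside the cell, gamma-glutamyltransferases remove the glutamyl group from glutathione, which returns its amino acids to the cell.

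The antioxidant response element has the core letters TGACNNNGC. The 300-base promoter windows given by RefSeq for GRCh38.p14 (250 bases before each transcription start and 50 after) covered 7 of the 10 genes, with 10 windows. SLC7A11, HMOX1 and GGT5 had no entry. The core was searched on both strands and was present in the windows of 3 of the 7 genes, GCLM, TXNRD1 and GGT1. Across all 27305 genes in the table, 16.1% had it in at least 1 window, and it was present in 13.3% of all 35116 windows. The matches are shown because these 3 genes differed from each other in their values between media, as described further on. Capitals mark the matched letters, and GCNNNGTCA is the core read on the other strand.
GCLM, chr1:93909445-93909474, minus strand: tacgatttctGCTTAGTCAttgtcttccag
TXNRD1, first start, chr12:104215670-104215699, plus strand: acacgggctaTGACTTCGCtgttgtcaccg
TXNRD1, first start, chr12:104215761-104215790, plus strand: gcgtccttcgGCTCCGTCAgttcccacagg
TXNRD1, second start, chr12:104286920-104286949, plus strand: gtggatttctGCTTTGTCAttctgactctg
GGT1, second start, chr22:24603154-24603183, plus strand: ggaaggaggaGCTGGGTCAcagcagggaat
The first matched base lay 34 bases before the start in GCLM, 99, 8 and 102 before it in the matches of TXNRD1, and 29 before it in GGT1. No window of NFE2L2, GCLC, NQO1 or SRXN1 had the core. Sequence outside these windows was not searched, so an element farther from the start would be missed. A match is a run of letters and not a measured binding site.

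The libraries held 23232324 to 31035389 gene counts, so a count of 0 allowed up to 0.0889 to 0.129 CPM (counts relative to library size, here scaled between libraries by TMM, a trimmed mean of ratios). Among 16107 tested genes, 1.36% reached an adjusted p below 0.05 (edgeR quasi-likelihood test, Benjamini-Hochberg over all genes). When replicate number was added to the model as a block, 4.78% did. The cardiomyocyte label was checked on 10 markers, and all 10 had counts in every library. Their summed level was 27374 to 33718 CPM in RPMI plus B27 and 21689 to 31820 CPM in DMEM plus fatty acids. Within that sum MYH6 was separated and higher in DMEM plus fatty acids (means 4758.4 and 8652.5 CPM). MYH7 (9638.1 and 4000.5 CPM), ACTN2 (2218.2 and 1109.5 CPM) and TNNI1 (2137.5 and 1822.5 CPM) were separated and lower. Of the 10, 0 reached an adjusted p below 0.05 without the block, and MYH7 and ACTN2 did with it (edgeR). Markers of other cells also differed between the media. The 10 fibroblast and stromal markers summed to 4338 to 8406 CPM in RPMI plus B27 and 758 to 1958 CPM in DMEM plus fatty acids. Of these, 9 of 10 were separated and lower in DMEM plus fatty acids, and DCN was at 0 in 1 library. Of all tested genes 12.8% were separated in that direction, and 12.8% in the other. Without the block 6 of the 10 stromal markers reached an adjusted p below 0.05, and with it 8 did, all lower (edgeR). The 5 smooth muscle markers summed to 1555 to 1949 and 311 to 1125 CPM, and the 5 epicardial markers to 1690 to 2236 and 797 to 1023 CPM. Nearly all of the epicardial sum was KRT8 (means 1300.8 and 605.8 CPM) and KRT18 (means 689.0 and 335.8 CPM). The other epicardial markers were low: TBX18 had means of 4.977 and 1.095 CPM. WT1 measured at most 0.867 CPM and UPK3B at most 0.373 CPM in any library. The 5 endothelial markers summed to 29.4 to 239.4 and 114.8 to 463.5 CPM, of which KDR made up 27.5 to 238.9 and 114.5 to 463.2 CPM, with the media overlapping. The other 4 were low: TEK measured 0.485 to 1.13 and 0.10 to 0.258 CPM, CDH5 had 0 counts in every library of DMEM plus fatty acids and 1 to 11 in those of RPMI plus B27, and PECAM1 and VWF had at most 5. The 6 hepatic and endodermal markers summed to 15.9 to 108.5 and 7.62 to 30.7 CPM, with 1 or more of AFP, ALB, TTR, FOXA2 and SOX17 at 0 in 3 libraries, and the 3 pluripotency markers to 0.468 to 1.62 and 0.0669 to 0.593 CPM. Without the block 1 smooth muscle and 1 epicardial marker reached an adjusted p below 0.05, both lower, and 0 endothelial, hepatic or pluripotency markers did (edgeR). With it 2 smooth muscle, 3 epicardial and 1 hepatic marker did, all lower, and KDR did, higher. Fewer cells of a type and less RNA per cell cannot be told apart in such bulk libraries, and the part of the cell mixture in the values that follow was not tested.

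In outline, GGT1 and SLC7A11 (the cystine importer) were several-fold higher in DMEM plus fatty acids, HMOX1 (heme oxygenase 1) was higher at a low level, and GCLM was moderately higher. The libraries of the media overlapped for the NRF2 mRNA itself and for its targets NQO1, GCLC, TXNRD1 and SRXN1. GGT5, a relative of GGT1, was close to absent and lower in DMEM plus fatty acids. Of the 10 genes, 9 passed the filter on low counts, all except GGT5. Leaving out GGT1, which was chosen for its difference, 7 of the other 8 had a fold change above 1 in DMEM plus fatty acids. So did 8219 of all 16107 tested genes. The median log2 fold change of the 8 members other than GGT1 (DMEM plus fatty acids relative to RPMI plus B27, here and throughout) was 0.28. It was 0.01 for all 16107 genes, and 0.47 for the members with GGT1. GGT1 passed the test and 0 of the other 8 did, with the smallest adjusted p among them at 0.0676 and 3 of them (SLC7A11, HMOX1 and GCLM) at an unadjusted p under 0.05 (edgeR), where 17.7% of all genes were. With the replicate block, SLC7A11 passed as well. Without a filter on low counts, where 2.00% of 26979 genes were called, SLC7A11 and HMOX1 passed. The DESeq2 Wald test, which called 7.53% of all genes, called SLC7A11 and HMOX1 of these 8, and limma voom, which called 1.07%, called 0, with the same 3 genes at an unadjusted p under 0.05. In the plot of all 10 genes by library, the libraries of the media did not overlap for GGT1 and for 3 of the other 8 tested genes (SLC7A11, GCLM and HMOX1), each higher in DMEM plus fatty acids, where 12.8% of all tested genes were separated in that direction.

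**Figure D1:**
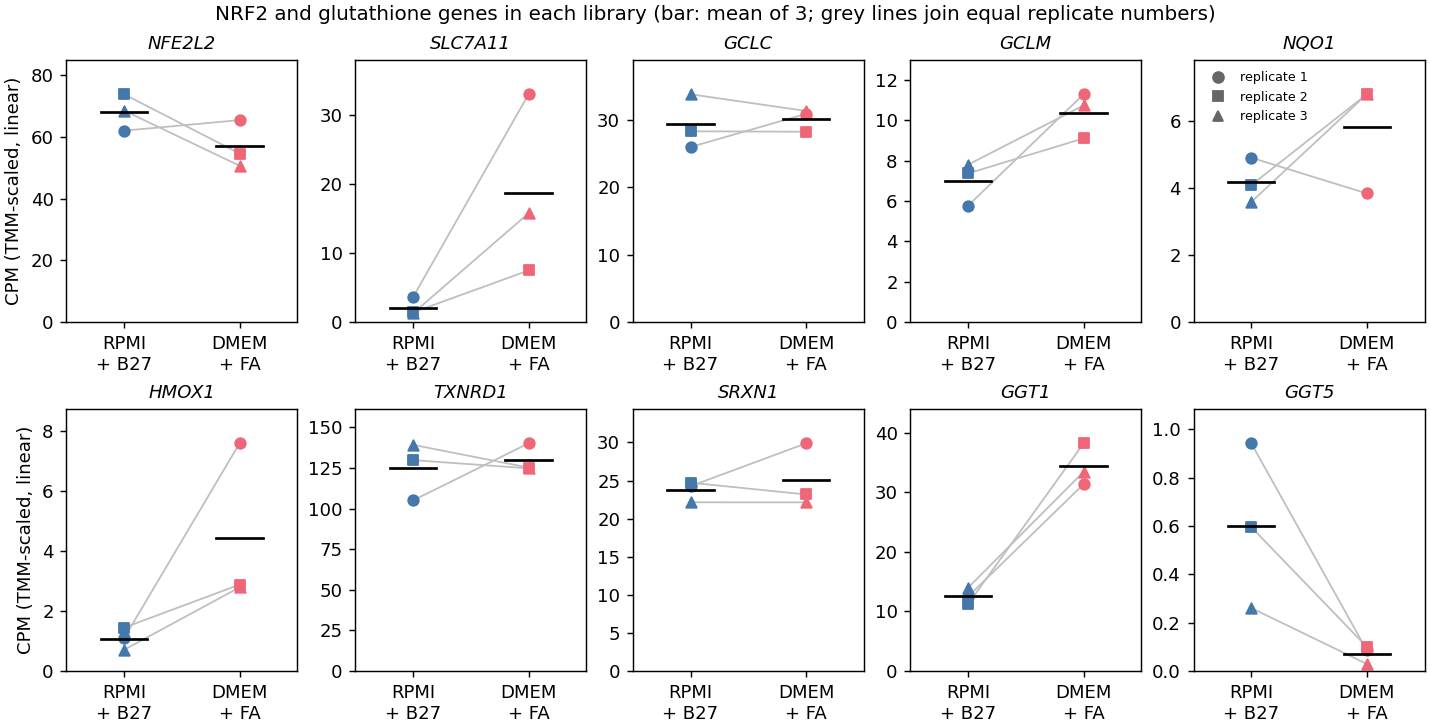
Level of each of the 10 genes in CPM (vertical axis, linear, from 0) in the 3 libraries of each medium (horizontal axis, FA for fatty acids); bars are means of 3, symbols mark replicate numbers and grey lines join equal numbers. SLC7A11, GCLM, HMOX1 and GGT1 are separated and higher in DMEM plus fatty acids, GGT5 has higher values in RPMI plus B27, and the other 5 overlap.

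The regulator itself, NFE2L2 (chr2:177227595-177392697, minus strand), measured 62.0, 73.8 and 68.5 CPM in RPMI plus B27 replicates 1 to 3. In DMEM plus fatty acids it measured 65.4, 54.6 and 50.6 CPM. Replicate 1 in DMEM plus fatty acids lay within the range of the other medium, so the groups overlapped. The log2 fold change was -0.26 ± 0.14 (SE, adjusted p 0.371 by edgeR, 0.289 with the replicate block), and it did not pass in any of 13 alternative fits. Within equal replicate numbers it was 0.08, -0.43 and -0.44. A change of NRF2 protein cannot be read from these values, because NRF2 is mainly controlled through its degradation.

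SLC7A11 (chr4:138164097-138242349, minus strand) encodes the light chain of the cystine-glutamate exchanger, which brings in the cystine that becomes cysteine. It measured 3.62, 1.40 and 1.27 CPM in RPMI plus B27 replicates 1 to 3, from 96, 33 and 34 counts. In DMEM plus fatty acids it measured 33.1, 7.49 and 15.8 CPM, from 768, 224 and 533 counts. Every library of DMEM plus fatty acids was above every library of RPMI plus B27, and replicate 1 was the highest within each medium. The fitted fold was 8.91 (log2 fold change 3.16 ± 0.64, SE), the largest of the 9 genes tested. Its adjusted p was 0.0676 by edgeR without the block and 0.00833 with it, where the log2 fold change was 3.10 ± 0.27. Over 13 alternatives the adjusted p ran from 5.03e-06 to 0.189 and passed in 3. Within equal replicate numbers the log2 difference was 3.19, 2.42 and 3.64. Without DMEM plus fatty acids replicate 1 the fitted log2 fold change was 2.46. The antisense gene SLC7A11-AS1 overlaps 8.97% of its exon bases and had 1 to 7 counts in each library.

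The partner chain of this exchanger, SLC3A2, did not pass the test. It measured 41.6, 52.0 and 47.7 CPM in RPMI plus B27 and 153.1, 68.1 and 57.0 CPM in DMEM plus fatty acids. All 3 libraries of DMEM plus fatty acids were higher, but replicate 1 stood far above the other two. The log2 fold change was 0.98 ± 0.36 (SE, adjusted p 0.217 by edgeR, 0.187 with the block), and 0.41 without DMEM plus fatty acids replicate 1. Of the 10 genes listed for cysteine supply and transsulfuration, all were tested, 8 had a fold change above 1, and 0 passed without the block (1 at an unadjusted p under 0.05). With it SLC1A4, a carrier of small neutral amino acids, passed at 0.70 (adjusted p 0.0394 by edgeR, 0.372 without the block). The list had a median of 0.28.

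Glutamate-cysteine ligase, the first enzyme of glutathione synthesis, has a catalytic subunit, GCLC (chr6:53497341-53616970, minus strand), and a modifier subunit, GCLM (chr1:93885205-93909456, minus strand), which makes the catalytic subunit more efficient. GCLC measured 26.0, 28.3 and 33.8 CPM in RPMI plus B27 and 30.9, 28.2 and 31.3 CPM in DMEM plus fatty acids. These ranges lay within each other, and the log2 fold change was 0.04 ± 0.14 (SE, adjusted p 0.914 by edgeR). GCLM measured 5.76, 7.36 and 7.79 CPM in RPMI plus B27 and 11.3, 9.10 and 10.7 CPM in DMEM plus fatty acids. The GCLM libraries did not overlap, with DMEM plus fatty acids higher, and the fitted fold was 1.49 (log2 fold change 0.57 ± 0.20, SE). That difference did not pass over all genes (adjusted p 0.204 by edgeR, 0.157 with the block, 0.0999 to 0.393 over 13 alternatives).

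The ratio of the subunits needs no scaling between libraries. There were 22.2, 26.0 and 23.1 GCLM counts per 100 GCLC counts in RPMI plus B27 replicates 1 to 3, and 36.5, 32.2 and 34.3 in DMEM plus fatty acids. The mean log2 ratio with RPMI plus B27 was -2.08 ± 0.12, and with DMEM plus fatty acids it was -1.54 ± 0.09 (SD over 3 libraries in each case). The difference of 0.53 had a p of 0.1 in an exact two-sided permutation test, the smallest that 3 against 3 libraries can give. It was 0.72, 0.31 and 0.57 within equal replicate numbers, where an exact sign-flip test gave a p of 0.25, again the smallest possible.

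**Figure D2:**
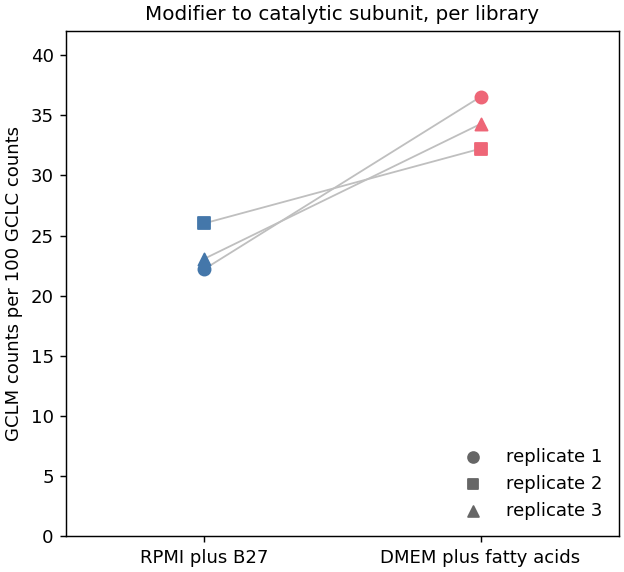
GCLM counts per 100 GCLC counts (vertical axis, from 0) in the 3 libraries of each medium (horizontal axis); symbols mark replicate numbers and grey lines join equal numbers. The RPMI plus B27 libraries sit between 22.2 and 26.0 and the DMEM plus fatty acids libraries between 32.2 and 36.5.

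NQO1 and HMOX1 are the detoxifying enzymes of the set. NQO1 (chr16:69706996-69726951, minus strand) reduces quinones and is among the most used readouts of NRF2. It measured 4.90, 4.08 and 3.58 CPM in RPMI plus B27 and 3.83, 6.79 and 6.79 CPM in DMEM plus fatty acids. Replicates 2 and 3 were above every RPMI plus B27 library, while replicate 1 lay inside their range. The log2 fold change was 0.47 ± 0.29 (SE, adjusted p 0.443 by edgeR), and 0 of 13 alternatives called it. HMOX1 (chr22:35380361-35394214, plus strand) breaks down heme. It measured 1.09, 1.45 and 0.708 CPM in RPMI plus B27, from 29, 34 and 19 counts, and 7.58, 2.88 and 2.79 CPM in DMEM plus fatty acids, from 176, 86 and 94 counts. The media did not overlap, and DMEM plus fatty acids replicate 1 was again the highest. The fitted fold was 4.06 (log2 fold change 2.02 ± 0.50, SE) with an adjusted p of 0.106 by edgeR and 0.0552 with the block, and 0.00372 to 0.212 over 13 alternatives, of which 2 passed. Without DMEM plus fatty acids replicate 1 the log2 fold change was 1.38.

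The thiol-reducing enzymes had fitted log2 fold changes below 0.1. TXNRD1 (chr12:104215779-104350305, plus strand), the cytosolic thioredoxin reductase, measured 105.0, 129.8 and 139.2 CPM in RPMI plus B27 and 140.1, 124.7 and 125.2 CPM in DMEM plus fatty acids. Its log2 fold change was 0.06 ± 0.14 (SE, adjusted p 0.855 by edgeR), and its 2 windows hold 3 matches to the element core. SRXN1 (chr20:646615-653370, minus strand), sulfiredoxin, which repairs overoxidised peroxiredoxins, measured 24.3, 24.7 and 22.1 CPM in RPMI plus B27 and 29.9, 23.2 and 22.1 CPM in DMEM plus fatty acids. Its log2 fold change was 0.08 ± 0.16 (SE, adjusted p 0.831 by edgeR). Both genes overlapped between media, and both had a negative fitted value in at least 1 of the 6 fits that left out a library. In GENCODE v29, 84.8% of the 50-base windows of SRXN1 also belong to the overlapping gene model AL121758.1, a symbol that the count tables do not list, so its counts would depend on the annotation used.

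**Figure D3:**
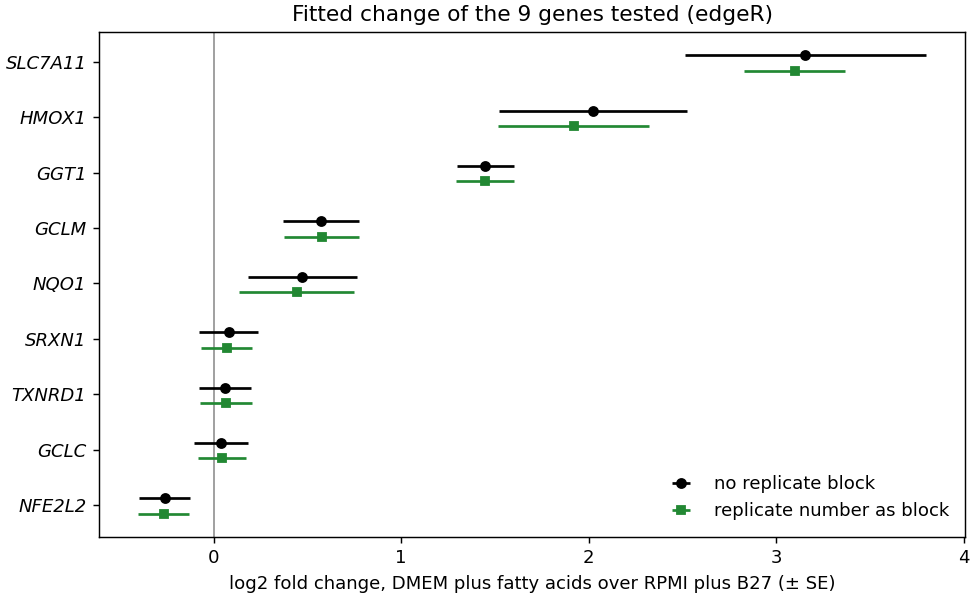
Fitted log2 fold change of the 9 tested genes (horizontal axis, DMEM plus fatty acids relative to RPMI plus B27) with standard errors, without the replicate block (black circles) and with it (green squares). SLC7A11 lies at 3.16 without the block and 3.10 with it, HMOX1 at 2.02 and GGT1 at 1.45, while GCLC, TXNRD1 and SRXN1 lie within 0.1 of 0.

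Gamma-glutamyltransferase was represented by GGT1 (chr22:24583750-24629005, plus strand) and GGT5 (chr22:24219654-24245142, minus strand). GGT1, the gene that led to this choice, measured 12.5, 11.2 and 14.0 CPM in RPMI plus B27 and 31.3, 38.2 and 33.4 CPM in DMEM plus fatty acids. Every library of DMEM plus fatty acids was far above every library of RPMI plus B27. Its fitted fold was 2.73 (log2 fold change 1.45 ± 0.15, SE), with log2 differences of 1.33, 1.77 and 1.26 within equal replicate numbers. Its adjusted p, the value it was chosen for, was 0.0242 by edgeR, and it stayed under 0.05 in 1 of the 6 fits that left out a library (0.0523 to 0.0947 in the other 5). Unlike SLC7A11 and HMOX1, GGT1 was lowest in replicate 1 of DMEM plus fatty acids.

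The identity of the GGT1 reads is limited by its copies. Of the 5202 different 50-base windows in GENCODE v29 transcripts of GGT1, 35.9% also occur in transcripts of other genes, above all GGT2 (14.4%), GGT3P (14.2%) and GGTLC2 (11.2%). Reads placed in more than one position had been set aside, so a read lying wholly in sequence copied elsewhere in the genome would go uncounted. A read that reaches beyond the copied sequence could still be placed, and the share of reads lost was not measured. SNRPD3, a gene of the splicing machinery on the same strand, shares 4.94% of the windows, overlaps 6.90% of the exon bases of GGT1 and had 2460 to 3955 counts. The gamma-glutamyltransferase copies had few counts. GGT2 had 34, 12 and 20 counts in RPMI plus B27 and 26, 25 and 55 in DMEM plus fatty acids, GGT3P had 0 or 1 in every library, and GGTLC2 had 0 to 4, against 264 to 1142 for GGT1.

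GGT5, which also cleaves leukotriene C4, had 25, 14 and 7 counts in RPMI plus B27 and 2, 3 and 1 in DMEM plus fatty acids. These are 0.942, 0.596 and 0.261 CPM against 0.0861, 0.10 and 0.0296 CPM, with no overlap. GGT5 did not pass the filter on low counts and has no value in the main test. Over summed libraries RPMI plus B27 was 8.66 times higher (exact 95% interval 3.69 to 24.8, counting error only). With no filter its adjusted p was 0.0571 by edgeR. Its libraries in RPMI plus B27 followed the order of the fibroblast and stromal marker sums, at 8406, 5389 and 4338 CPM for replicates 1 to 3. The cardiomyocyte sums (33718, 30564 and 27374 CPM) and smooth muscle sums (1949, 1784 and 1555 CPM) had the same order there. Epicardial sums (mainly KRT8 and KRT18), endothelial sums (mainly KDR) and hepatic sums ran the other way. In DMEM plus fatty acids GGT5 did not follow the stromal sums (758, 1958 and 1808 CPM). It had the order of the smooth muscle sums (424, 1125 and 311 CPM) and of the cardiomyocyte sums (30559, 31820 and 21689 CPM). With 2, 3 and 1 counts, the order of GGT5 in that medium is not settled. The part of stromal cells in the GGT5 difference was not tested.

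Levels of different genes were compared per length, as CPM per kilobase of GENCODE v29 exon bases. In RPMI plus B27 the order of the means was TXNRD1 (18.6 ± 2.63), NFE2L2 (11.4 ± 0.988), SRXN1 (8.79 ± 0.508), GCLC (3.39 ± 0.464) and GGT1 (2.84 ± 0.310), then NQO1 and GCLM (1.29 each), HMOX1 (0.450), SLC7A11 (0.217) and GGT5 (0.0990) (SD, n = 3). The libraries of GCLC and GGT1 overlapped, as did those of NQO1 and GCLM, of HMOX1 and SLC7A11, and of SLC7A11 and GGT5. In DMEM plus fatty acids TXNRD1 led again (19.4 ± 1.30). NFE2L2 (9.51 ± 1.28), SRXN1 (9.29 ± 1.56) and GGT1 (7.74 ± 0.792) came next and overlapped one another. GCLC followed at 3.49 ± 0.193, below all GGT1 libraries, and overlapped SLC7A11. SLC7A11 (1.95 ± 1.35), GCLM (1.91 ± 0.210), HMOX1 (1.84 ± 1.14) and NQO1 (1.78 ± 0.525) overlapped one another, and GGT5 stood at 0.0119. The place of GGT1 in both orders depends on the windows it shares with other genes. If its shared bases held no counts and were left out of its length, an alternative chosen after seeing the data, GGT1 stood at 4.42 ± 0.484 in RPMI plus B27, with every library above those of GCLC, and at 12.1 ± 1.24 in DMEM plus fatty acids, with every library above those of NFE2L2. The lengths of the other genes were left as they are, although NFE2L2 shares 15.6% of its windows and GCLC 6.24%. The places of GGT1 above GCLC and NFE2L2 therefore rest on unlike treatment of the genes and are not settled. SRXN1 shares 84.8% of its windows, NQO1 15.3% and SLC7A11 9.19%. The place of SRXN1 in both orders would thus also depend on the annotation used for counting.

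By centred log2 CPM over the 6 libraries, the genes nearest to GGT1 among 11428 with a mean of at least 5 CPM were FZD4 (a Frizzled receptor, root mean square difference 0.192), SLC7A8 (an amino acid transporter, 0.224), TMCO4 (0.229), INSYN1 (0.230) and BRSK2 (0.233), where the median gene differed by 0.752. With RPMI plus B27, FZD4 measured 31.1 ± 3.67 CPM and SLC7A8 11.7 ± 2.07 CPM. With DMEM plus fatty acids they measured 72.4 ± 9.99 and 31.0 ± 2.63 CPM (SD over 3 libraries). These genes were selected for likeness to a gene that differs between the media, so their own difference is part of the selection.

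The remaining genes of the pathway were read from 8 lists of 96 genes, of which 85 were tested. Their median log2 fold change was 0.09, with 56 above 0 and 29 below it (8219 and 7888 over all 16107 tested genes). Of the 85, 2 passed: GSTK1, higher, and TXNIP, lower (edgeR, 1.36% over all genes). At an unadjusted p under 0.05 there were 21 of the 85, against 17.7% of all genes. With the replicate block 10 passed, 4 higher and 6 lower, where 4.78% of all genes did.

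Among 9 regulators of NRF2 the inhibitor KEAP1, its ligase partner CUL3 and the competing repressor BACH1 had log2 fold changes of 0.05, 0.07 and -0.06. None of the 9 passed without the block (edgeR, 1 at an unadjusted p under 0.05), and the small MAF genes MAFF and MAFK passed with it, both lower. MAFF measured 5.09, 3.53 and 2.72 CPM in RPMI plus B27 and 1.64, 0.836 and 0.830 CPM in DMEM plus fatty acids, without overlap (log2 fold change -1.79 ± 0.40, SE, adjusted p 0.0835 by edgeR, 0.0255 with the block). MAFK measured 84.0, 43.7 and 34.3 CPM and 40.3, 18.1 and 9.54 CPM, where the media overlapped because replicate 1 was highest in each (-1.26 ± 0.54, adjusted p 0.286 by edgeR, 0.0186 with the block). Its log2 fold change was -0.79 without RPMI plus B27 replicate 1 and -1.97 without DMEM plus fatty acids replicate 1. MAFG, the third small MAF gene, stood at 0.07. NFE2L1, a relative of NRF2, had 0.33 ± 0.15 (adjusted p 0.299 by edgeR).

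Of 22 further NRF2 targets, 19 were tested and 0 passed (edgeR, 5 at an unadjusted p under 0.05), with 9 above 0, 10 below it and a median of -0.03. The smallest p values were those of the ferritin heavy chain FTH1 (0.47 ± 0.15), malic enzyme ME1 (0.43 ± 0.14) and the pentose phosphate enzyme PGD (0.34 ± 0.12), with adjusted p values of 0.172 to 0.205 by edgeR. ABCC1, an exporter of glutathione conjugates, passed with the block, lower (-0.60 ± 0.10 and adjusted p 0.0333 with the block, 0.214 without). It lies outside the naming rule and is named for its value. The aldo-keto reductases AKR1C1, AKR1C2 and AKR1C3, often used as NRF2 readouts in human cells, had -0.40, -0.41 and 0.89, with adjusted p values of 0.503 to 0.670, and AKR1B10 did not reach the filter.

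Glutathione synthesis and reduction genes, with 9 of 10 tested, had a median of 0.14 and 0 passing in either fit (edgeR, 0 at an unadjusted p under 0.05). GSS, which completes glutathione, had 0.19, and GSR, which regenerates it from its oxidised form, had -0.01. The 3 with the smallest p were GPX7 (0.30), GLRX (0.34) and GPX3 (0.51, and 0.16 without DMEM plus fatty acids replicate 3), the last being a secreted glutathione peroxidase.

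The conjugating enzymes went in both directions. GSTK1, a mitochondrial and peroxisomal glutathione transferase, measured 82.4, 115.9 and 100.5 CPM in RPMI plus B27 and 183.1, 197.7 and 167.2 CPM in DMEM plus fatty acids. It rose without overlap (log2 fold change 0.87 ± 0.15, SE, adjusted p 0.0471 by edgeR, 0.0236 with the block), but kept its call in none of the 6 fits without 1 library (0.0864 to 0.164), nor with all 6 libraries under a minimum of 10 counts in each (0.0556). GSTP1 (-0.54 ± 0.11, adjusted p 0.0491) and MGST1 (-0.50 ± 0.10, adjusted p 0.0438), named for their values, fell in the fit with the block but not in the one without it (0.0808 and 0.225). Of the 12 genes 11 were tested, 4 above 0 and 7 below it, with a median of -0.10 and 5 at an unadjusted p under 0.05.

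Of 13 genes of glutathione breakdown other than GGT1 and GGT5, 7 were tested and all 7 had a fold change above 1, with a median of 0.31. Of all 16107 tested genes 8219 had a fold change above 1. The lowest of the 7, GGCT, had a log2 fold change of 0.004. Without the block 0 of the 7 passed (edgeR, 2 at an unadjusted p under 0.05), and 1 did with it. CHAC1, which cleaves glutathione inside the cell and, like SLC7A11, is a known target of the stress factor ATF4, measured 3.99, 3.57 and 3.28 CPM in RPMI plus B27 and 19.4, 9.36 and 9.07 CPM in DMEM plus fatty acids. The media did not overlap, and DMEM plus fatty acids replicate 1 was the highest library, as for SLC7A11, HMOX1 and SLC3A2. That library was also the highest for GCLM, TXNRD1 and SRXN1, and in the lists for SESN2 and GGT7 among others. It was not the highest for NFE2L2, GCLC, NQO1, GGT1 or GGT5. For CHAC1 the log2 fold change was 1.80 ± 0.34 (SE) with an adjusted p of 0.0583 by edgeR and 0.0238 with the block, and 4 of 13 alternatives called it. The peptidases CNDP2 (0.55 ± 0.16) and LAP3 (0.49 ± 0.21) had adjusted p values of 0.148 and 0.292 by edgeR. GGT7 had 0.31, while GGT6 and GGTLC1 did not reach the filter.

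Carriers of glutathione had a median of 0.19 over 6 genes, and 0 passed in either fit (edgeR, 2 at an unadjusted p under 0.05). ABCC5 had 0.66 ± 0.16 (adjusted p 0.0948) and ABCC4 0.59 ± 0.23 (0.244), both export pumps, while the mitochondrial carrier SLC25A39 had 0.06. In the thioredoxin and peroxiredoxin system all 14 genes were tested, 12 of them above 0, with a median of 0.19. TXNIP, the thioredoxin-binding protein, passed downward, from 177.8 to 273.6 CPM in the 3 libraries of RPMI plus B27 to 6.54 to 12.4 CPM in DMEM plus fatty acids (log2 fold change -4.45 ± 0.30, SE, adjusted p 0.00478 by edgeR). Catalase (CAT), named for its value, passed upward with the block (0.66 ± 0.13, adjusted p 0.0440, and 0.147 without).

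**Figure D4:**
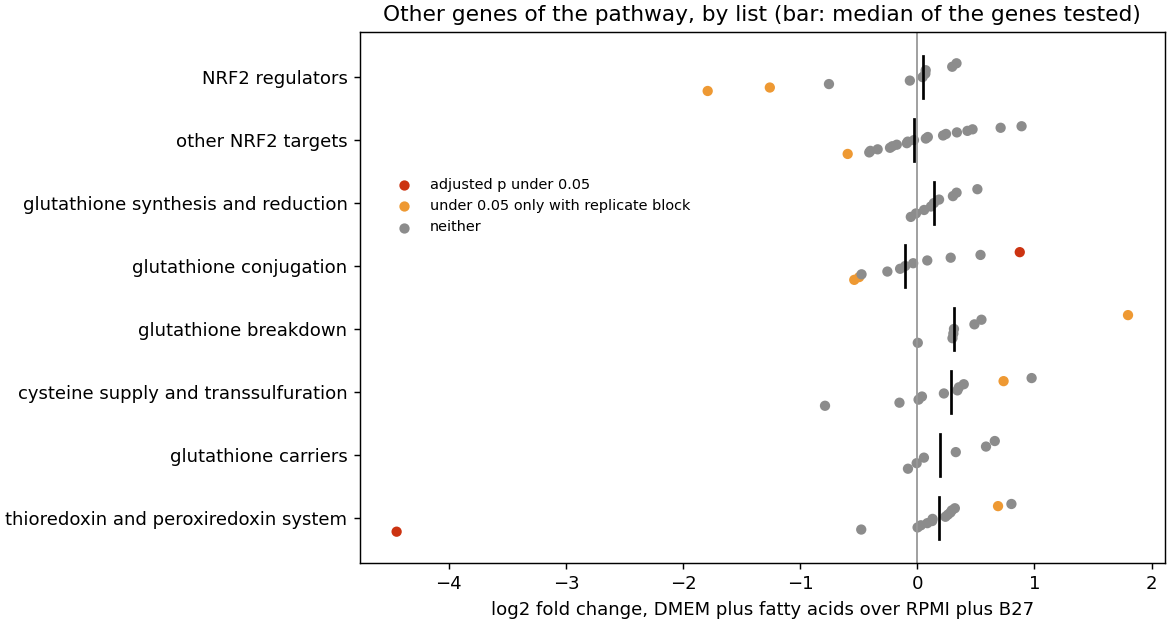
Fitted log2 fold change (horizontal axis, DMEM plus fatty acids relative to RPMI plus B27) of the 85 tested genes in the 8 other lists (vertical axis); each point is 1 gene, black bars are list medians and colours show whether the adjusted p was under 0.05. TXNIP at -4.45 and GSTK1 at 0.87 are the points in red, and list medians run from -0.10 to 0.31.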

How the data were processed

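Stranded mRNA libraries from 6 cultures, 3 per medium, were sequenced. Each deposited file held the unnormalized read counts of 1 library by gene symbol; the submitters' processing notes name STAR, HTSeq and hg38, and the gene annotation, strand setting and versions are not given in the sources used here. The 5 summary rows of each file were left out (gene rows held 84.4% to 87.2% of each library). Groups and replicate numbers came from the sample titles. Coordinates and exon lengths came from GENCODE v29 (GRCh38), which may differ from the annotation used for counting.

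Counts were filtered with filterByExpr (minimum count 10, minimum total 15), scaled by TMM and tested with edgeR 4.0.16 (R 4.3.3) by the quasi-likelihood test over all 16107 genes, Benjamini-Hochberg adjusted, threshold 0.05. Standard errors were taken from the fold change and its F statistic. The script was tested on simulated data. The ratio was tested by exact permutation. Alternatives were scaling by total counts or RLE, DESeq2 1.42.0, limma 3.58.1 voom, other filters, a replicate block, leaving out each library and, added after seeing the data, a shorter length for GGT1. Whether replicate numbers pair the libraries was checked on deviations from the medium means. Libraries with equal numbers correlated at 0.313, 0.428 and 0.365 across genes and those with other numbers at -0.242 to -0.136. Deviations within a medium cancel for each gene, so positive values at equal numbers force negative ones elsewhere, which add no separate evidence. Equal numbers were treated as pairs in the replicate block and in differences within equal numbers, whereas the main test left pairing out. Nothing in the labels says what libraries of 1 number have in common. P values measure the spread between these cultures only.

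The members and lists were chosen with earlier results of these data known. Named genes are the 10 members, per list the called genes (up to 4) or else the 3 with the smallest p, and the 5 nearest to GGT1; others are named for their role or, where stated, for their value.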

Additional observations from a re-analysis of the deposited data

How the results depend on the processing

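Over all genes 219 were called, and 1212 by DESeq2, 539 without a filter on low counts, 119 under a minimum of 10 counts per library, 770 with the replicate block, and 3 to 131 when 1 library was left out. GGT1 was chosen for its difference, so its calls are given as a description. Of the other 8 tested genes, 0 were called in the main fit (1.36% of all genes). SLC7A11 and HMOX1 were called by DESeq2 (7.53% of all genes) and without the filter (2.00%, GGT5 also tested). With the replicate block (4.78%) SLC7A11 was called. GGT1 was called in each of these fits. When 1 library was left out, 0 of the others were called. GGT1 was then called only without RPMI plus B27 replicate 3. These fits have fewer samples. Other scalings and limma voom called GGT1 alone. The log2 fold change turned sign for GCLC without RPMI plus B27 replicate 1 (-0.044), for TXNRD1 without RPMI plus B27 replicate 1 (-0.050) and without DMEM plus fatty acids replicate 1 (-2.97e-06), and for SRXN1 without DMEM plus fatty acids replicate 1 (-0.069); the cause was not tested. Scaling by total counts moved the median of all genes from 0.01 to 0.12, and GCLC, TXNRD1 and SRXN1 to 0.15, 0.17 and 0.18. The difference between media in the log2 ratio of GCLM to GCLC was 0.53 in the main comparison and 0.53 within pairs (replicate block). It was 0.49 to 0.60 when 1 library was left out. For the other 25 named genes no alternative turned the direction. Of their 325 values in the alternatives, 278 kept the outcome of the main fit, 37 lost a call and 10 gained one. Counts of 1 to 3 limit GGT5 in DMEM plus fatty acids.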
